A study of Homo sapiens with 6 samples.

Results

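Integrins and laminins were described across ATAC-seq libraries of HLF, an established line of human liver cancer cells. The set held every protein-coding gene of the GENCODE hg38 annotation whose symbol is ITGA, ITGB, LAMA, LAMB or LAMC followed by a number or a single letter, without the ITGB1BP, ITGB3BP and ITGBL1 genes. These were 38 of 20033 protein-coding genes, 26 integrin chains and 12 laminin chains, chosen by name and not by any measured value. ATAC-seq maps open chromatin, because the transposase Tn5 inserts adapters where nucleosomes leave DNA bare, and a peak is a stretch rich in such fragments. Cells had received DMSO as the vehicle (3 libraries) or 5 μM SNDX-5613, a small molecule that keeps menin from binding MLL1 (3 libraries). All 6 libraries came from the same parental line without any stated genetic change and carried batch 1 in the labels. The labels give 24 h of treatment whereas the study's methods describe a longer one, so the duration is uncertain. The study's methods describe a replicate as 1 dish divided between treatments, without tying dishes to library numbers, and whether dishes came from separate cultures is not given, so the p-values measure the spread between these libraries.

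Laminins are large cross-shaped proteins of basement membranes, each assembled from an alpha, a beta and a gamma chain. Integrins are paired alpha and beta chains that span the cell membrane, bind laminin, collagen, fibronectin and other matrix proteins outside the cell, and connect to actin through talin and kindlin inside it. Most alpha chains pair with ITGB1, ITGA6 pairs also with ITGB4 in epithelia, and several alpha chains together with ITGB2 or ITGB7 are known from leukocytes.

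Sequences are shown here for 5 of the member sites that the comparison of treatments turned on, and then for the strongest sites inside gene bodies. Each line gives the strongest summit with up to 50 bases of hg38 on each side, 5′ to 3′ on the strand of the gene, with bases of untranslated regions left out. Capitals mark TGACTCA (the AP-1 motif), CATTCC (TEAD) or CCAAT (NF-Y), searched on both strands.
LAMA2 promoter, chr6:128883051-128883137, plus strand, lower after SNDX-5613: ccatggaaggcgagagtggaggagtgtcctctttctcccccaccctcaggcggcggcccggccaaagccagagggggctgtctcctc
ITGA1 intron, chr5:52837156-52837256, plus strand, lower after SNDX-5613: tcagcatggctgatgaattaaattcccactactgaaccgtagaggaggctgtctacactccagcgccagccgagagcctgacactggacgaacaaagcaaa
LAMB1 intron, chr7:107952910-107953010, minus strand, higher after SNDX-5613: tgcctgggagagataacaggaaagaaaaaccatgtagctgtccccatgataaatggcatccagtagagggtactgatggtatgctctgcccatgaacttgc
LAMA2 intron, chr6:128888604-128888704, plus strand, peak in DMSO libraries only: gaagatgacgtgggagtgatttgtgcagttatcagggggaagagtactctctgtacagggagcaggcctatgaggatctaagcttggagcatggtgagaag
LAMA2 intron, chr6:129120997-129121097, plus strand, peak in DMSO libraries only: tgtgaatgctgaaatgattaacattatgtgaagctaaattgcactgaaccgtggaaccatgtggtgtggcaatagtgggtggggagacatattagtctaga
ITGB1 intron, chr10:32980647-32980747, minus strand, a strong gene body site: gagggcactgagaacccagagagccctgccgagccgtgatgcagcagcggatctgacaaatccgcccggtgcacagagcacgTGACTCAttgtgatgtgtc
LAMA3 intron, chr18:23719806-23719906, plus strand, a strong gene body site: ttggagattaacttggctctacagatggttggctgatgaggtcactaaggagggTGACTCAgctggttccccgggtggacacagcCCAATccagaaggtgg
ITGA3 gene body, chr17:50064772-50064872, plus strand, a strong gene body site: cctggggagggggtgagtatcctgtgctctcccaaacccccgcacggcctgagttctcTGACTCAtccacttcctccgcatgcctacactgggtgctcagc
The 5 sequences of sites that differed or were lost held no match to the 3 motifs, while the 3 gene body sites shown held an AP-1 match and the LAMA3 site also an NF-Y match. Of the other 2 among the 5 strongest gene body sites, the ITGAD site held an NF-Y match and the ITGA10 site none.

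Each library came as its own list of peaks, and accessibility was read from the fragment pileup at each summit, the number of fragments that cover that base. Peak regions that overlapped between libraries were merged into sites, which gave 166021 sites in all and 422 at the members. Of the member sites, 102 were promoter sites, with a region centred within 1 kb of an annotated start site of the gene, and 320 lay elsewhere in the gene body. Regions per library numbered 88026 to 113675 in 5 libraries and 40568 in SNDX-5613 replicate 3, whose background pileup was 0.211 against 0.997 to 1.51. Pileups were therefore divided by a size factor per library, which gave the scaled pileup. The lowest pileup called at the background corresponded to a scaled pileup of 12.8 in SNDX-5613 replicate 3 and of 3.99 to 5.39 in the other libraries, so that weaker sites were not detectable in that library. Hepatocyte markers went against the tissue label: 0 of 10 had a promoter peak in all 6 libraries, TTR and CPS1 had one in 5, and ALB, APOA1 and HNF4A had none. Promoters of all 5 mesenchymal markers (VIM, ZEB1, CDH2, FN1 and SPARC) and of 4 of 5 epithelial markers were open in all 6 libraries. Among markers of cells that the culture should lack, 2 of 6 leukocyte, 1 of 4 endothelial and 0 of 3 platelet promoters were open in all 6, and LCP1, one of the leukocyte ones, shared its site with a promoter of LRRC63.

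Most integrin and laminin genes had open promoters in HLF cells. A promoter peak was found in all 6 libraries for 25 of 38 members (65.8%, against 63.7% of all protein-coding genes), in 1 to 5 libraries for 10 members, and in none for ITGAM, ITGB6 and LAMB4 (7.89%, against 19.9%). DMSO libraries had a promoter peak at 31, 31 and 33 members, and SNDX-5613 libraries at 33, 34 and 26. The groups overlapped, with means of 31.7 ± 1.15 and 31.0 ± 4.36 members (SD, n = 3 each), and the difference of -0.667 was smaller than the spread (two-sided exact permutation p = 1, where 3 against 3 libraries allow no p below 0.1). The low count was that of the shallow SNDX-5613 replicate 3. With only the 40568 strongest regions of each library kept, the counts were 25, 25 and 26 in DMSO and 26, 25 and 26 in SNDX-5613 libraries. The share of a library's regions that lay in member promoters or gene bodies was 0.272%, 0.268% and 0.253% in DMSO and 0.242%, 0.258% and 0.237% in SNDX-5613 libraries, a difference of -0.0187 percentage points (two-sided exact permutation p = 0.2).

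**Figure D1:**
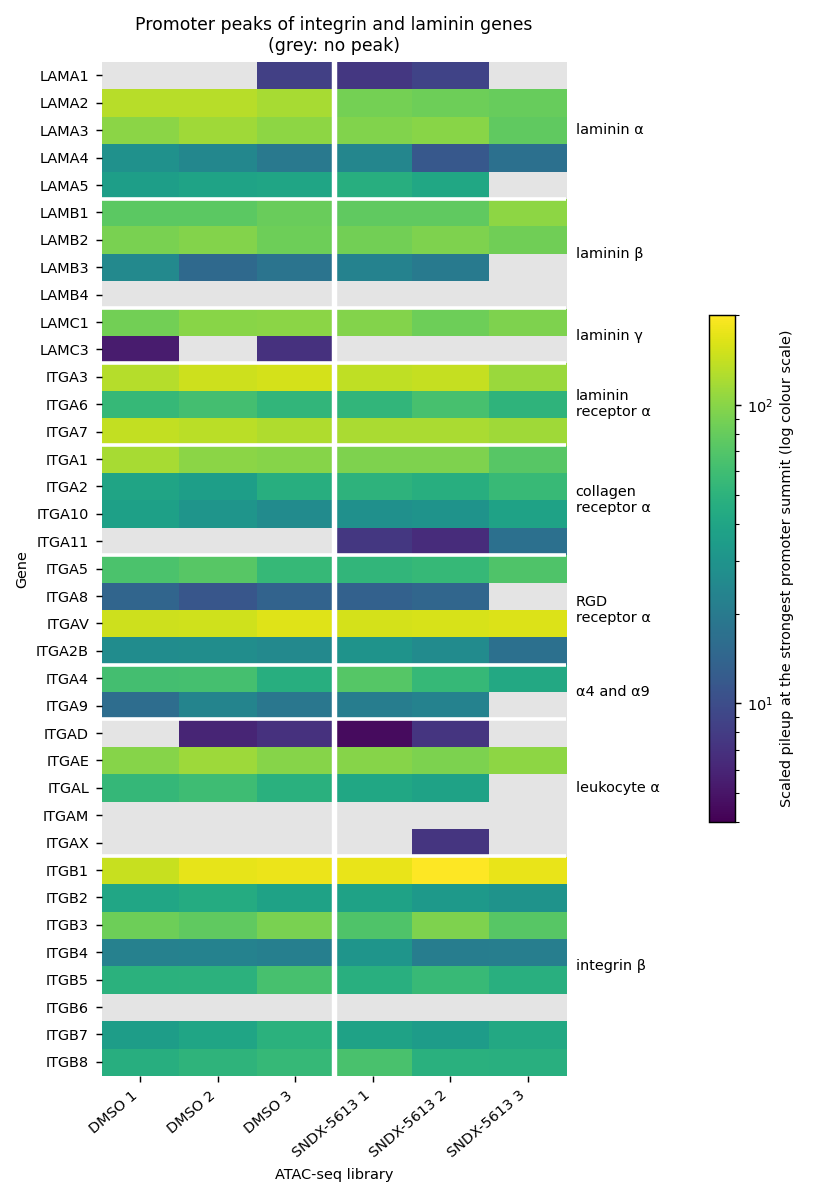
Promoter peaks of 37 members (rows, grouped by chain) in each library (columns), coloured on a log scale by the scaled pileup at the strongest promoter summit, grey where no peak was called. ITGAM, ITGB6 and LAMB4 are grey throughout, and LAMA5, LAMB3, ITGA8, ITGA9 and ITGAL are grey only in SNDX-5613 replicate 3.

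Leukocyte chains had no canonical start site that was open in all 6 libraries. At the canonical start site, the one the annotation marks as the gene's representative, a peak in all 6 libraries was found for 21 of 38 members (55.3%, against 58.4% of all protein-coding genes). It was found for 0 of the 7 leukocyte chains (ITGAD, ITGAE, ITGAL, ITGAM, ITGAX, ITGB2 and ITGB7) and for 21 of the other 31 members. ITGAE, the alpha chain of intraepithelial lymphocytes, had a strong promoter site with a scaled pileup of 92.6 to 113, which also held the promoter of HASPIN, a kinase gene inside its intron, 77316 bp from the canonical ITGAE start. ITGB2 was open at an upstream start site shared with ITGB2-AS1 at 24.6 to 37.6, and ITGB7 at an internal start 9407 bp into the gene at 35.0 to 48.7. ITGAL had a peak at an internal start 26813 bp into the gene, with a scaled pileup of 53.9, 59.2 and 48.0 in DMSO and 41.3 and 37.9 in SNDX-5613 replicates 1 and 2, and none at its canonical start. ITGAX had a single promoter peak, in SNDX-5613 replicate 2, at 7.29. ITGAD promoter peaks, in 2 DMSO and 2 SNDX-5613 libraries, reached no more than 7.29. The platelet chain ITGA2B followed the same layout, with its open site 13386 bp inside the gene and a canonical peak in SNDX-5613 replicate 1 alone.

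Among laminin alpha chains, LAMA2 and LAMA3 had the most open promoters. LAMA3, the alpha chain of epidermal anchoring laminin, had 1 promoter site, at its canonical start. The annotated starts farther inside the gene had none, and which LAMA3 transcripts were made was not measured here. The canonical site had a scaled pileup of 100.7, 114 and 102 in DMSO and of 95.4, 99.2 and 76.8 in SNDX-5613 libraries. The SNDX-5613 values all lay below the DMSO values, and the difference did not pass the test (log2 difference -0.16 ± 0.12, SE, adjusted p = 0.485 by limma). LAMA4, a chain of vascular and mesenchymal laminins, had the weakest promoter site present in every library, at 8.09, 7.32 and 10.4 in DMSO and 12.8, 11.7 and 17.1 in SNDX-5613 libraries. All SNDX-5613 values were higher and the last was close to that library's limit of detection, with a log2 difference of 0.53 ± 0.28 (SE, adjusted p = 0.298). That limit, 12.8, lay above every DMSO value, so the site could be tested only with a higher value in that library. LAMA5, the alpha chain of most adult epithelial basement membranes, was called in the 5 deeper libraries at 36.0, 38.6 and 39.6 in DMSO and 46.6 and 40.8 in SNDX-5613 libraries. LAMA1, the embryonic alpha chain, had weak promoter peaks, at 8.35 in DMSO replicate 3 and 8.02 in SNDX-5613 replicate 2 at an internal start and at 7.51 and 8.75 in SNDX-5613 replicates 1 and 2 near the canonical start.

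Beta and gamma chains that make up the common laminins were open. LAMB1 had a promoter scaled pileup of 74.6, 74.6 and 82.1 in DMSO and 77.4, 77.3 and 102 in SNDX-5613 libraries, and LAMC1, the gamma chain of most laminins, had 87.2 to 102 and 84.6 to 96.2. Neither promoter passed the test, with an adjusted p of 0.895 and 0.668 by limma. LAMB2, the beta chain of synapses and kidney filters, had its own promoter site at 69.2 to 84.8 in DMSO and 46.9 to 73.7 in SNDX-5613 libraries, and a stronger site near its end that holds the USP19 promoter. LAMB3, a partner of LAMA3 in epidermal laminin, was weaker. It had 25.2, 15.3 and 18.1 in DMSO and 22.5 and 19.7 in SNDX-5613 libraries at a start site other than the canonical one. In 1 SNDX-5613 library the region there was also centred within 1 kb of the canonical start. LAMC3 had promoter peaks only in DMSO replicates 1 and 3, at 5.39 and 6.95.

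Laminin receptor alpha chains had promoter peaks in all 6 libraries. ITGA3 had a scaled pileup of 130, 148 and 155 in DMSO and 137, 142 and 111 in SNDX-5613 libraries, and ITGA6 had 52.9 to 61.9 and 51.2 to 64.2, with overlapping groups for both. ITGB4, which pairs with ITGA6 in hemidesmosomes, had 21.6 to 22.6 and 21.1 to 30.8. The common partner ITGB1 had the highest promoter of the set, at 144.7, 174 and 179 in DMSO and 177, 199 and 175 in SNDX-5613 libraries (log2 difference 0.15 ± 0.09, SE, adjusted p = 0.385). A second ITGB1 promoter, with its summit at -47566 bp from the canonical start, was lower, at 118 to 134 in DMSO and 114 to 133 in SNDX-5613 libraries.

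Receptors of RGD ligands and collagen covered the whole range. ITGAV, the alpha chain of vitronectin receptors, followed ITGB1 with 147, 151 and 166 in DMSO and 155, 158 and 162 in SNDX-5613 libraries. ITGA5, the fibronectin receptor chain, had 54.9 to 72.6 and 52.6 to 68.2 with a log2 difference of -0.23 ± 0.14 (SE, adjusted p = 0.403). The beta partners of ITGAV gave 68.4 to 93.3 for ITGB3, 38.4 to 64.0 for ITGB5 and 46.8 to 64.6 for ITGB8 over the 6 libraries, while ITGB6 had no promoter peak. ITGA8 had 11.3 to 14.6 and ITGA9 had 12.6 to 21.0 at the canonical start, both in the 5 deeper libraries only. Of the collagen receptor chains, ITGA1 shared its promoter with PELO at 72.5 to 120, ITGA2 had 35.9 to 55.4 and ITGA10 had 26.4 to 38.4. ITGA11 had promoter peaks in the 3 SNDX-5613 libraries and in 0 of 3 DMSO libraries, but at different places: replicates 1 and 2 shared an internal start at 7.51 and 6.56, and replicate 3 had 17.1 at the canonical start from a pileup of 4.

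**Figure D2:**
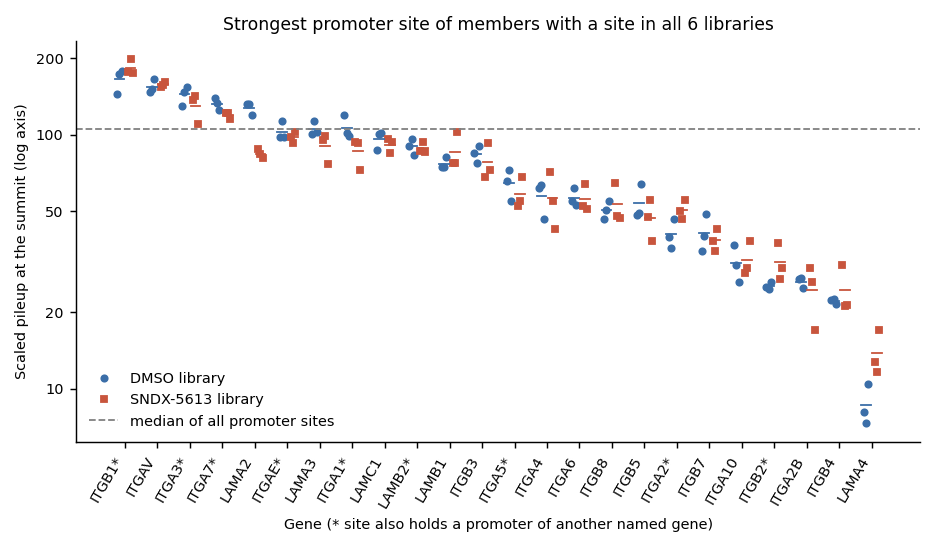
Scaled pileup at the strongest promoter site of 24 of the 25 members with a promoter site in all 6 libraries (log axis), with DMSO libraries as circles, SNDX-5613 libraries as squares, short lines at the group means and a dashed line at the median of all promoter sites. ITGB1 is highest and LAMA4 lowest, and LAMA2 is the gene whose SNDX-5613 values stand clearly below its DMSO values.

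The mean scaled pileup of these 25 strongest promoter sites ran from 11.2 to 175, with a median of 61.4. The median over all 13072 promoter sites present in the 6 libraries was 106, and 5 of the 25 lay above it: ITGB1, ITGAV, ITGA3, ITGA7 and LAMA2. For ITGA7 this was the site shared with BLOC1S1, at -8564 bp from its canonical start. LAMA2 lay barely above, at 106.1 against 105.9.

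The comparison of SNDX-5613 with DMSO asked whether blocking menin shifts accessibility at these genes. It used the 82 member sites with a peak in all 6 libraries, tested by limma together with all 33405 such sites. A site that is open in fewer cells and a site that is less open in each cell cannot be told apart in this assay. At an adjusted p under 0.05, 2 member sites were higher (2.44%, against 3.97% of all sites) and 2 were lower (2.44%, against 1.57% of all sites). The higher ones were a promoter of ITGA7 and an intron of LAMB1, and the lower ones the promoter of LAMA2 and an intron of ITGA1. When sites were compared by rank within each library or by the authors' fold enrichment, limma called 0 member sites (9 and 12 at an unadjusted p under 0.05), and the 4 named ones had an adjusted p of 0.0657 to 0.252 and of 0.272 to 0.825. The shares of all sites called under these settings are not given here, so these counts do not set the members apart from other sites. The median log2 difference of the 36 member promoter sites was -0.03, against -0.05 for all 13072 promoter sites and -0.01 for all sites. All SNDX-5613 values lay below all DMSO values at 11 member sites (13.4%, against 9.77% of all sites) and above them at 7 (8.54%, against 11.3%). These shares were near those of all sites.

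**Figure D3:**
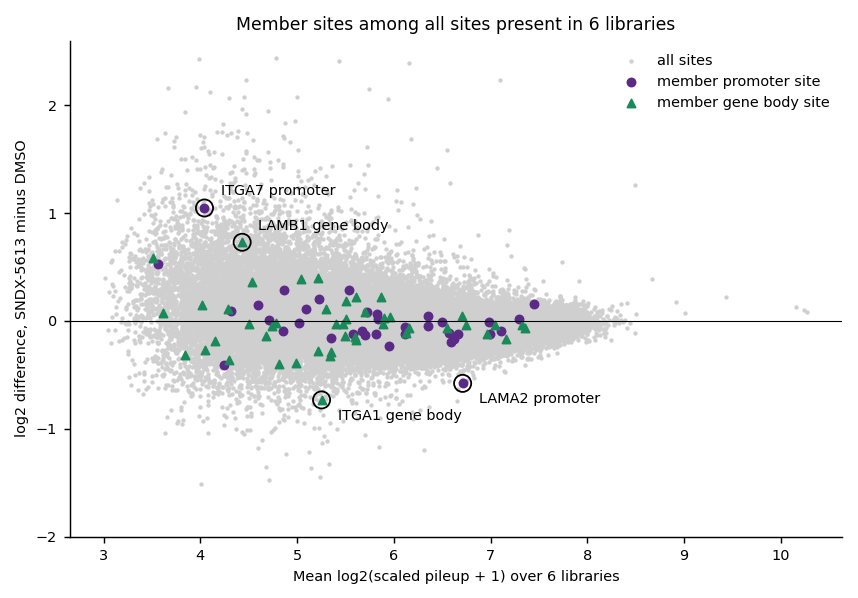
Log2 difference of scaled pileup (SNDX-5613 minus DMSO) against mean log2(scaled pileup + 1) for all 33405 sites (grey), with member promoter sites as circles, member gene body sites as triangles and rings around the 4 member sites with an adjusted p under 0.05. ITGA7 and LAMB1 lie above 0 and LAMA2 and ITGA1 below it.

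LAMA2, the alpha chain of muscle and nerve laminin, had the smallest adjusted p of the member sites. Its promoter site (chr6:128882614-128883556), with the summit 37 bp upstream of the canonical start shown above, had scaled pileups of 132, 132 and 120 in DMSO and 87.9, 83.9 and 81.0 in SNDX-5613 libraries. Every SNDX-5613 value was lower, and the group values did not overlap. The site fell from 128 ± 7.14 to 84.3 ± 3.47 (SD, n = 3 each), a log2 difference of -0.58 ± 0.11 (SE, adjusted p = 0.000165), and without the shallow SNDX-5613 replicate 3 the difference was -0.57. On the authors' fold enrichment over local background in place of the pileup, the log2 difference was -0.08 with an adjusted p of 0.825.

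LAMA2 also held 2 of the 3 lost member sites, those with a peak in all 3 DMSO and no SNDX-5613 library. It was the longest member, at 633 kb, and had the most sites, 42 of the 422. Member sites lost in this way numbered 3 of 422, against 1.18% of all sites, and 0 were gained, against 0.147% of all sites. The first lost site lay in an intron 5339 bp from the nearest LAMA2 start with pileups of 8, 20 and 20, and the second had 11, 12 and 9. The other lost site was in ITGAL, the lymphocyte chain, with pileups of 15, 13 and 19. All 3 were weak, and the lowest pileup called at the background was 6 or 7 in the libraries other than SNDX-5613 replicate 3. Their mean scaled DMSO pileups were 11.5, 8.05 and 11.8, below the limit of 12.8 in SNDX-5613 replicate 3. A peak at those means would not have been called in that library. Without SNDX-5613 replicate 3, the same number (3) were lost, against 1.23% of all sites, and 9 were gained, against 2.43%. The gained ones included another 2 LAMA2 introns, so LAMA2 sites appeared in both lists. Of the 4 LAMA2 sites present in every library, the promoter among them, all had a log2 difference below 0. So did 50 of the 82 member sites, and all 5 of ITGA3. Of the 12 LAMA2 sites present in the 5 deeper libraries 8 were below 0 and 4 above, against 89 below and 70 above of 159 member sites.

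**Figure D4:**
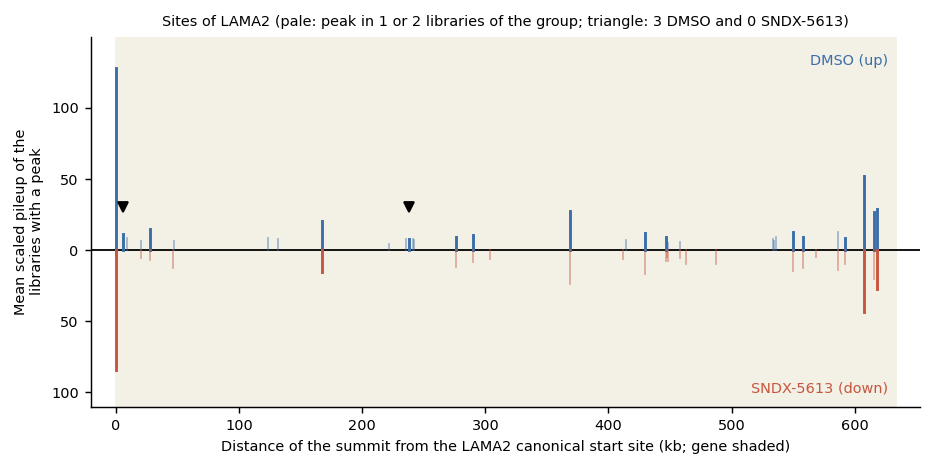
Mean scaled pileup of the libraries with a peak at each LAMA2 site, DMSO upward and SNDX-5613 downward, against the distance of the summit from the canonical start site in kb, pale where a peak was called in only 1 or 2 libraries of the group. The promoter at the left edge is the highest in both groups, at 128 in DMSO and 84.3 in SNDX-5613 libraries, and triangles mark the 2 sites with a peak in 3 DMSO and 0 SNDX-5613 libraries.

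ITGA7, an alpha chain that binds LAMA2-containing laminin in muscle, had promoter sites in all 6 libraries at 2 start sites. The canonical start was weak, with scaled pileups of 9.89, 14.6 and 6.95 in DMSO and 23.3, 21.9 and 25.6 in SNDX-5613 libraries. All SNDX-5613 values were higher, from means of 10.5 ± 3.88 to 23.6 ± 1.87 (SD, n = 3 each). The log2 difference was 1.05 ± 0.25 (SE, adjusted p = 0.00276). The limit of detection of SNDX-5613 replicate 3, 12.8, lay above the DMSO mean. A peak at that mean would not have been called there, so the site could enter this test only with a higher value in that library. Without that library the log2 difference was 1.06 ± 0.27 (SE, adjusted p = 0.00818 by limma). The distal ITGA7 promoter, at -8564 bp from the canonical start and shared with BLOC1S1, was more open, at 139, 134 and 125 in DMSO and 122.5, 122.5 and 115 in SNDX-5613 libraries, with a log2 difference of -0.12 ± 0.10 (SE, adjusted p = 0.602). Whether the 2 promoters differed in response was not tested. The call at the canonical start was lost without SNDX-5613 replicate 1 (adjusted p = 0.116) or replicate 2 (adjusted p = 0.129), with log2 differences of 1.10 and 1.14.

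ITGA1, a collagen receptor chain, fell at an intronic site (chr5:52837080-52837783) 49290 bp from its start. Scaled pileups were 53.0, 45.3 and 44.5 in DMSO and 23.3, 30.6 and 34.1 in SNDX-5613 libraries, without overlap. Group means were 47.6 ± 4.72 and 29.3 ± 5.52 (SD, n = 3 each), with a log2 difference of -0.73 ± 0.17 (SE, adjusted p = 0.00242). Its promoter, shared with PELO, gave -0.20 ± 0.12 (SE, adjusted p = 0.385). The intronic call was lost without SNDX-5613 replicate 1 (log2 difference -0.52, adjusted p = 0.311) or replicate 2 (-0.71, adjusted p = 0.159).

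LAMB1 rose at an intronic site (chr7:107952600-107953174), from scaled pileups of 18.9, 12.6 and 13.9 in DMSO to 22.5, 23.3 and 42.6 in SNDX-5613 libraries. The highest value was that of SNDX-5613 replicate 3, from a pileup of 10, and the groups did not overlap. The limit of detection of SNDX-5613 replicate 3, 12.8, lay above the value of DMSO replicate 2 and below those of DMSO replicates 1 and 3. A peak at the value of DMSO replicate 2 would not have been called in SNDX-5613 replicate 3. The log2 difference was 0.73 ± 0.22 (SE, adjusted p = 0.0268), and it was 0.64 with an adjusted p of 0.125 without SNDX-5613 replicate 3. Leaving out either of the other SNDX-5613 libraries, or DMSO replicate 2 or 3, also ended this call.

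**Figure D5:**
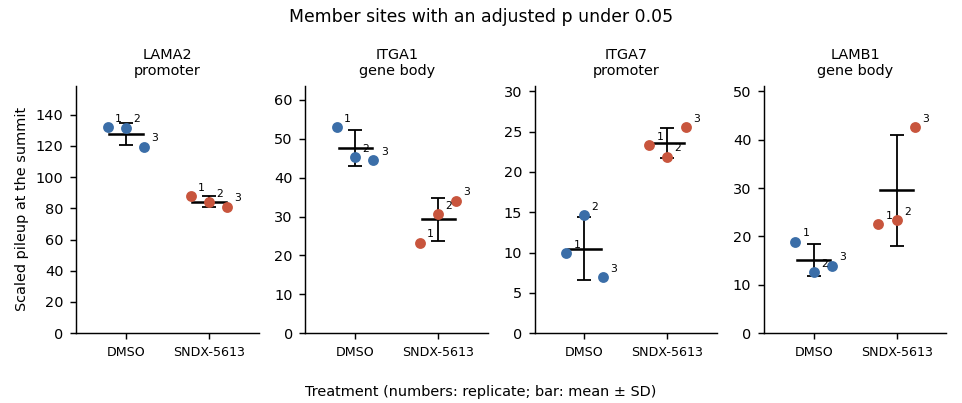
Scaled pileup at the 4 member sites with an adjusted p under 0.05 in each library (points, numbered by replicate), with mean ± SD of 3 libraries per group. LAMA2 and ITGA1 are lower and ITGA7 and LAMB1 higher in SNDX-5613 libraries, and for LAMB1 the highest point is SNDX-5613 replicate 3.

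Leaving out SNDX-5613 replicate 3 widened the test to 159 member sites of 59986. Of these 1 was higher (0.629%, against 2.64% of all sites), the ITGA7 canonical promoter, and 3 were lower (1.89%, against 1.47% of all sites). The lower ones were the LAMA2 promoter, the ITGA1 intron and an intron of ITGA4, a chain of receptors for fibronectin and VCAM1, which was named after its values were seen. The ITGA4 site (chr2:181472894-181473487) had pileups of 17, 24 and 20 in DMSO and 8 and 13 in SNDX-5613 libraries, with a log2 difference of -0.93 ± 0.27 (SE, adjusted p = 0.0322). No peak was called there in SNDX-5613 replicate 3, whose limit of 12.8 lay close to the scaled DMSO values of 13.9 to 16.0. At the ITGA4 promoter the difference was 0.06 ± 0.15 over the 6 libraries (SE, adjusted p = 0.884).

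Further promoter sites at the ends of the range did not pass the test. A LAMA2 start site 167156 bp into the gene had 22.5, 19.3 and 20.2 in DMSO and 15.0, 14.6 and 17.1 in SNDX-5613 libraries, lower in each, with a log2 difference of -0.41 ± 0.23 (SE, adjusted p = 0.321). For ITGB2 the difference was 0.29 ± 0.19 (SE, adjusted p = 0.438).

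Inside gene bodies, the highest mean scaled pileups were 163 in an ITGB1 intron that also holds a start of ITGB1-DT, 160 in a LAMA3 intron 30403 bp from the start, 142 at the end of ITGA10 in its untranslated region, 132 in ITGA3 and 125 in an ITGAD intron. These exceeded most member promoters, and none passed the test between treatments. The ITGAD site was strong although the ITGAD promoter had only weak peaks. The ITGB1 and LAMA3 sites are among the sequences shown above. Over the 46 member gene body sites, the summit with 50 bases on each side held TGACTCA at 13 (28.3%, against 17.1% of the 20333 sites away from promoters), CATTCC at 9 (19.6%, against 12.2%) and CCAAT at 9 (19.6%, against 13.2%). Over the 36 member promoter sites, TGACTCA was found at 5 (13.9%, against 3.04% of all promoter sites), CATTCC at 3 (8.33%, against 4.11%) and CCAAT at 4 (11.1%, against 24.1%). The promoter sites with TGACTCA were the canonical ITGA5 start, the distal ITGB1 start, the upstream ITGB2 start and starts far inside LAMA2. Over all 33405 sites the shares were 11.6%, 9.04% and 17.4%. These shares describe the letters in the windows and were not tested.

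Other genes of the adhesion pathway were read from a list of 35, of which 32 had a promoter peak in all 6 libraries (91.4%, against 63.7% of all protein-coding genes). Of their 45 distinct promoter sites tested, 2 were higher after SNDX-5613 (4.44%, against 2.77% of all promoter sites) and 1 was lower (2.22%, against 1.56%). FERMT1, which encodes the integrin activator kindlin-1, had scaled pileups of 25.2, 17.3 and 20.2 in DMSO and 35.3, 37.9 and 25.6 in SNDX-5613 libraries, a log2 difference of 0.80 ± 0.20 (SE, adjusted p = 0.00439). BCAM, a laminin receptor outside the integrin family, had 36.9, 36.6 and 34.8 in DMSO and 59.4, 55.4 and 38.4 in SNDX-5613 libraries, a log2 difference of 0.59 ± 0.16 (SE, adjusted p = 0.0121). PLEC, whose product plectin links ITGB4 to keratin filaments, had 138, 137 and 130 in DMSO and 98.4, 113 and 107 in SNDX-5613 libraries, a log2 difference of -0.34 ± 0.11 (SE, adjusted p = 0.0386). In each of these the groups did not overlap, though narrowly for FERMT1 (25.2 against 25.6) and BCAM (36.9 against 38.4). Without SNDX-5613 replicate 3 the adjusted p by limma was 0.00712 for FERMT1, 0.00768 for BCAM and 0.0499 for PLEC. Results by rank or by the authors' fold enrichment are not given here for these calls. The vinculin gene VCL and the integrin-linked kinase gene ILK had log2 differences of -0.07 and -0.04 at their strongest promoter sites, with adjusted p = 0.706 and 0.876 (limma).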

How the data were processed

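ATAC-seq was run on 3 DMSO and 3 SNDX-5613 libraries of HLF cells, grouped by the labels. Per the study's methods, the authors used the Omni-ATAC protocol, aligned with Bowtie2, had Picard mark duplicates and called peaks in single libraries. The submitters' processing notes name Trim Galore 0.6.7, Bowtie2 2.3.4.1, Picard 2.20.0, deepTools 3.5.4 and MACS2, with hg38. The Tn5 shift, blacklist and mapping quality cutoff were not given in the sources used here. The deposited peak lists give for each summit the fold enrichment (ratio) over local background and the -log10 p and -log10 q values. The 2 deposited consensus sets were not used. Read counts were not analysed here, so the DESeq2 test of the study was not run.

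From fold and p each summit was solved for its pileup, which came out whole (within 0.02) for 100% of summits in every library. Summits of a region were merged, keeping the strongest, and regions overlapping by at least 1 bp formed sites. Coordinates were matched to GENCODE release 44, and 0 of 542918 regions lay past the end of a chromosome. Pileups were divided by size factors (median ratio to the site's geometric mean) and tested as log2(scaled pileup + 1) by limma 3.58.1 with array weights and Benjamini-Hochberg adjustment over all sites. No count model was used. Counts and shares per library were compared by exact permutation. The fit and the pileup solver were tested on simulated data. The sites tested had a peak in every library, so sites too weak for SNDX-5613 replicate 3 were left out.

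Named were members with a promoter peak in some libraries, member sites past the threshold or lost, the 3 largest rises and falls among promoter sites, 12 fixed genes and the 5 strongest gene body sites. Members and lists were chosen with earlier results of these data known. Alternatives covered normalization, weights, filters, presence, promoter distance and each library left out in turn. By the study's methods a replicate was a dish divided between treatments, so replicate numbers may pair the libraries. Same-numbered libraries had correlations of deviations from the group means of 0.0251, 0.0017 and 0.0321, and the fit without the block was kept as the main one. Some genes and sequences are not reported here.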

Additional observations from a re-analysis of the deposited data

How the results depend on the processing

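Calls at the members rest on few sites. Against 2 higher and 2 lower of 82, quantile normalization gave 1 higher and 2 lower. With -log10 q of at least 3, 1 was higher and 2 were lower of the 68 sites kept, without the ITGA7 site. Equal weights gave 1 of each (2 in all). A mean scaled pileup of at least 40 kept 48 sites and a peak covering 50% of the site kept 22. Each gave 0 higher and 1 lower (1 in all). The ITGA7, ITGA1 and LAMB1 sites were removed by both of these filters, so they were not tested there. Ranks and the authors' fold enrichment gave 0 of each (limma, with 9 and 12 at an unadjusted p under 0.05). Leaving out 1 library gave 1 to 4 calls, 0 to 2 of them higher and 1 to 3 lower. Apart from the fit without SNDX-5613 replicate 3, the shares of all sites called under these settings are not given here. The counts therefore do not tell whether members changed more than other sites did. The 4 differences themselves kept their sign. The LAMA2 promoter stayed past the threshold under 12 of 14 alternatives (limma adjusted p up to 0.825), ITGA1 under 7 of 12, ITGA7 under 7 of 11 and LAMB1 under 3 of 12 of those that kept the site. The difference in members with a promoter peak, -0.667, was 0.333 at an equal number of regions and between -2.17 and 1.83 with a library left out, where the positive value came without the shallow SNDX-5613 replicate 3. Lost member sites numbered 3, then 1 at an equal number and 3 to 12 with a library left out, and gained ones 0, then 0 to 9. Leaving out a library loosens the rule, as fewer libraries of its group have to meet it, for all sites as for members. The median of member promoter sites, -0.03, lay between -0.10 and 0.00 under the alternatives run, which moved it by less than the pooled SD between libraries of 0.0920. With a replicate block 2 sites were higher and 2 lower (4 in all), the median was -0.05, and the per-library differences were -0.667 members and -0.0187 percentage points, and the block changed none of the 4 calls.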
